A study of Mus musculus with 39 samples.

Results

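Microglia of mice with the PLX term were compared with microglia of mice without it, at saline and with the prenatal term CON. The comparison uses 8 of the 39 libraries of the series, chosen by their labels alone. The 4 CON_PLX_SAL libraries carry prenatal CON, the arm term PLX and a saline injection. The 4 CON_CON_SAL libraries carry prenatal CON, the arm term CON and a saline injection. The labels do not define PLX, nor its dose or timing. Every library came from striatal microglia of male mice aged 8 to 10 weeks, collected 18 hours after the injection. Live cells were sorted for CD11b, for P2RY12 and for low CD45, so each library holds cells that pass a microglial gate. The rest of the series has MIA (maternal immune activation) as prenatal term or lipopolysaccharide (LPS) as injection, and 2 of those libraries, whose titles mark them for exclusion, are not used here. Whether replicates are separate animals is not said in the labels, so the p-values below cover the spread between these libraries only, and that spread may be technical.

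Microglia are the resident macrophages of the brain parenchyma. They depend on signalling through CSF1R, a receptor tyrosine kinase whose ligands are CSF1 and interleukin 34, and PLX begins the code names of several inhibitors of that receptor. When microglia are depleted and the niche refills, cells of other origin that take it up are known to differ from resident microglia by genes such as Apoe, Ms4a7 and Clec12a, while resident cells carry Sall1, P2ry12 and Tmem119. Border-associated macrophages sit at the meninges and vessels, share much of the microglial programme and are marked by Mrc1, Cd163 and Lyve1.

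The promoters of 4 genes that passed the test are shown because those genes carry the result. They are the 250 bases upstream of the outermost start listed by RefSeq (GRCm38.p6), given 5' to 3' on the gene's own strand, and 7 of the 10 genes that passed the test below matched the table. Capitals mark GAGGAA, a core of the site bound by the macrophage factor PU.1, or TATAAA, the TATA box, searched on both strands. The windows lie at chr7:19699189-19699438 on the minus strand for Apoe, chr9:123968693-123968942 on the minus strand for Ccr1, chr2:43748574-43748823 on the plus strand for Arhgap15 and chr3:56183702-56183951 on the minus strand for Nbea.
Apoe: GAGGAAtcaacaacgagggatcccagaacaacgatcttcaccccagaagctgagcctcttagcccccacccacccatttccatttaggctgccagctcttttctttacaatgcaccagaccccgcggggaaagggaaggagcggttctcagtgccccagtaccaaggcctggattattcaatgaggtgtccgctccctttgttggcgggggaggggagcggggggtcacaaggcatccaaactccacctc
Ccr1: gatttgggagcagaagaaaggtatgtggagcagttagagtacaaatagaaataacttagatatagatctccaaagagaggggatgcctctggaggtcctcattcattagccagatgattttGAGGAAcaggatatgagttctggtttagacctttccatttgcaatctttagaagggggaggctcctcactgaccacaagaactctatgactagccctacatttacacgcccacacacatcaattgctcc
Arhgap15: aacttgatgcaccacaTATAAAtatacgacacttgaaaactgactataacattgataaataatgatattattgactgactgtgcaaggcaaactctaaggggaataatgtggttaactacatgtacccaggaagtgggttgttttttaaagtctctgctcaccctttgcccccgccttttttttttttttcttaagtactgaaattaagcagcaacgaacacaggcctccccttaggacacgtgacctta
Nbea: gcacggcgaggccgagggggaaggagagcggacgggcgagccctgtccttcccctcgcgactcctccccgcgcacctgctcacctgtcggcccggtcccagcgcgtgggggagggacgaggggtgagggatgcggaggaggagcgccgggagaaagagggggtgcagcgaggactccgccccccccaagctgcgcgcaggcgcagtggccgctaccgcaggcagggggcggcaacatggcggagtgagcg
The GAGGAA core lay in 2 of the 7 windows, those of Apoe and Ccr1, and in 23.3% of all 32851 windows of that length. TATAAA lay in 1 of the 7, that of Arhgap15, and in 12.4% of all windows. The NF-kB motif GGGANTTCC lay in none of the 7 and in 1.43% of all. These motifs do not overlap each other in the windows shown, and a match is only a match of letters.

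The deposited values are estimated counts per gene. Totals ran from 2764186 to 4538537 counts in CON_PLX_SAL libraries, against 2797704 to 3942937 in CON_CON_SAL libraries, with an exact two-sided permutation p of 0.229. Mitochondrial ribosomal RNA took 10.2% to 11.9% of counts in CON_PLX_SAL and 9.70% to 12.4% in CON_CON_SAL (exact permutation p = 0.743). With 4 libraries a side the smallest such p is 0.0286, and over the 3 library measures tested the lowest adjusted p was 0.643. CON_PLX_SAL 2 stands apart by transcripts of blood cells. Its 13 neutrophil markers summed to 139.8 CPM (counts in a library relative to its total, on a fixed scale), against 0.244 to 4.70 CPM in the other CON_PLX_SAL libraries and 0 to 3.83 CPM in CON_CON_SAL libraries. For the difference of the group means the exact permutation p was 0.429, which does not measure how far a single library lies from the rest. The 8 erythroid markers of CON_PLX_SAL 2 summed to 141.7 CPM, against 1.32 to 23.2 CPM in the other CON_PLX_SAL libraries and 0.254 to 26.5 CPM in CON_CON_SAL libraries. The results below are therefore also given without CON_PLX_SAL 2. Log2 CPM profiles correlated at 0.972 to 0.976 within CON_PLX_SAL and at 0.955 to 0.969 within CON_CON_SAL. On the first principal component, which held 23.08% of the variance, the CON_PLX_SAL libraries lay between -12.1 and -2.22, while CON_CON_SAL 1 lay at 31.4 and CON_CON_SAL 3 at -22.1.

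The markers of the gate were present in every library. P2ry12, the purinergic receptor used for sorting, averaged 2767 ± 135 CPM in CON_PLX_SAL and 2612 ± 286 CPM in CON_CON_SAL (SD, n = 4 each). Itgam, which encodes CD11b, averaged 1496 ± 111 CPM in CON_PLX_SAL and 1775 ± 221 CPM in CON_CON_SAL, a log2 difference of -0.25 ± 0.08 (SE) that was not called (adjusted p 0.66, edgeR). Ptprc, which encodes CD45, lay between 595 and 615 CPM in CON_PLX_SAL and between 570 and 676 CPM in CON_CON_SAL.

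Few genes differed. Of 11864 genes tested, 8 were higher (0.0674%) and 2 lower (0.0169%) in CON_PLX_SAL at an adjusted p under 0.05 (edgeR quasi-likelihood, Benjamini-Hochberg), 0.0843% in all, and such genes are called here. Higher were Apoe, Ccr1, Vcam1, Arhgap15, Trps1, Sult1a1, Aoah and AI662270, by 1.78-fold to 6.49-fold. Lower were Nbea and Amotl1, at 0.593 and 0.569 of their CON_CON_SAL level. Before adjustment 612 genes had a p under 0.05, 287 higher and 325 lower. Genes whose 4 CON_PLX_SAL values did not overlap the 4 CON_CON_SAL values numbered 369 (3.11% of those tested). Of these, 187 were higher (1.58%) and 182 lower (1.53%). Random relabeling of 4 and 4 libraries leaves a gene without overlap at a rate of 0.0286, close to the share found. All 10 called genes are among the 369, which adds no support because the calls rest on the same values. The median log2 fold change over all genes was -0.003, and the quartiles were -0.12 and 0.12. In bulk RNA, fewer cells of a type and less RNA per cell cannot be told apart.

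**Figure D1:**
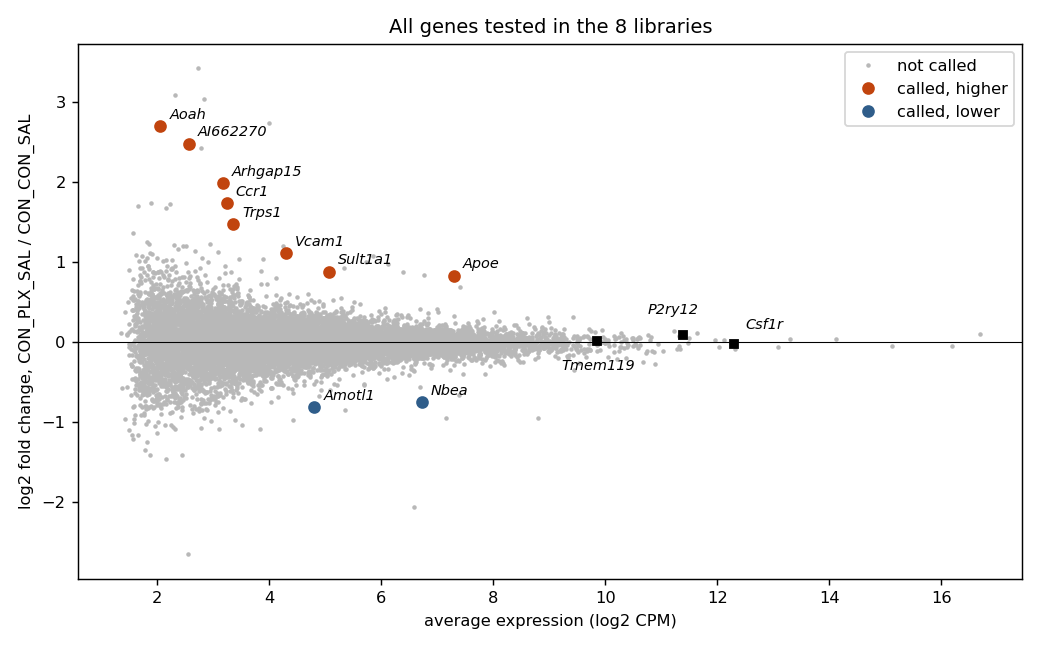
Each point is a gene, with its average expression (log2 CPM) across and its log2 fold change of CON_PLX_SAL over CON_CON_SAL up, in the fit of 8 libraries. The 8 higher and 2 lower called genes are named, and black squares mark Csf1r, P2ry12 and Tmem119, which lie between -0.02 and 0.08.

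Apoe (chromosome 7, 19696109 to 19699188, minus strand, GRCm38) encodes apolipoprotein E, the lipid carrier of the brain, which microglia raise in several states of damage. Its values were 198.2, 188.1, 197.4 and 216.9 CPM in CON_PLX_SAL 1 to 4, against 124.3, 105.1, 110.3 and 109.9 CPM in CON_CON_SAL 1 to 4. Every CON_PLX_SAL library lay well above every CON_CON_SAL library, and CON_PLX_SAL 2 was the lowest of its group. This is a log2 fold change of 0.83 ± 0.08 (SE; adjusted p 1.92e-06, edgeR), or 0.86 (1.58e-05) without CON_PLX_SAL 2. It was called whichever of the 8 libraries was left out, with changes of 0.79 to 0.88. It was not called in fits that pooled the spread over 15 saline libraries or over 37 libraries.

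Ccr1 (chromosome 9, 123962124 to 123968692, minus strand) encodes a receptor for inflammatory chemokines such as CCL3 and CCL5. Its values were 14.6, 9.35, 12.9 and 17.2 CPM in CON_PLX_SAL 1 to 4 and 2.33, 5.13, 2.80 and 5.84 CPM in CON_CON_SAL 1 to 4. No values overlapped, and CON_PLX_SAL 2 was the lowest of its group. This gave a log2 fold change of 1.73 ± 0.29, with an adjusted p of 0.00516, and 1.88 with 0.00648 without CON_PLX_SAL 2. The call was lost without CON_PLX_SAL 4.

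Vcam1 (chromosome 3, 116109949 to 116129688, minus strand) encodes an adhesion molecule that binds integrins of white blood cells. It had 21.04, 26.1, 29.4 and 26.6 CPM in CON_PLX_SAL 1 to 4 and 7.78, 9.16, 14.7 and 15.9 CPM in CON_CON_SAL 1 to 4. CON_CON_SAL 3 and 4 stood closest to the CON_PLX_SAL values without reaching them. Its log2 fold change was 1.12 ± 0.21, with an adjusted p of 0.0144. Without CON_PLX_SAL 2 it was 1.11 and just missed the threshold, with an adjusted p of 0.0551, and it was also not called without CON_PLX_SAL 3 or 4 or without CON_CON_SAL 1 or 2. Vcam1 overlaps the antisense gene Gm43109, and without strand information shared reads cannot be assigned.

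Arhgap15 (chromosome 2, 43748824 to 44395953, plus strand) encodes a GTPase-activating protein that switches off the small GTPase Rac. CON_PLX_SAL 1 had the highest value, 20.6 CPM, and CON_PLX_SAL 2 to 4 had 10.8, 11.4 and 8.26 CPM, against 1.82, 2.93, 4.55 and 3.90 CPM in CON_CON_SAL 1 to 4. The difference on the log2 scale was 1.99 ± 0.32, with an adjusted p of 0.00516, and 2.06 with 0.00759 without CON_PLX_SAL 2. The call was lost without CON_PLX_SAL 1. Reads of its antisense partner Arhgap15os cannot be told apart, because the kit keeps no strand information.

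Trps1 (chromosome 15, 50654752 to 50890463, minus strand) encodes a GATA-type zinc finger repressor of transcription. Its values were 15.3, 12.5, 10.4 and 18.3 CPM in CON_PLX_SAL 1 to 4, against 5.45, 7.69, 4.20 and 3.06 CPM in CON_CON_SAL 1 to 4. The groups did not overlap. The log2 fold change was 1.47 ± 0.27, with an adjusted p of 0.0144, and 1.52 with 0.0337 without CON_PLX_SAL 2. Leaving out CON_PLX_SAL 1, CON_PLX_SAL 4 or CON_CON_SAL 4 ended the call. Trps1 overlaps the microRNA gene Mir1907 on the same strand.

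A pair of the higher genes encodes enzymes. Sult1a1 (chromosome 7, 126672865 to 126676432, minus strand), a sulfotransferase that conjugates phenols, had 43.2, 34.4, 43.8 and 49.2 CPM in CON_PLX_SAL 1 to 4, against 21.5, 23.8, 28.4 and 19.2 CPM in CON_CON_SAL 1 to 4. Its lowest CON_PLX_SAL value, in CON_PLX_SAL 2, was above its highest CON_CON_SAL value, in CON_CON_SAL 3. This gave a log2 fold change of 0.88 ± 0.15, with an adjusted p of 0.00516, and 0.97 with 0.00648 without CON_PLX_SAL 2; the call was lost without CON_PLX_SAL 4 or CON_CON_SAL 4. Its annotation overlaps that of Sgf29 on the other strand, so shared reads cannot be assigned. Aoah (chromosome 13, 20794113 to 21036617, plus strand), which inactivates lipopolysaccharide by removing acyl chains, had 4.65, 3.44, 6.93 and 10.1 CPM in CON_PLX_SAL 1 to 4, against 1.56, 0.733, 0.350 and 0.835 CPM in CON_CON_SAL 1 to 4. These values rest on 1 to 28 counts a library. Its log2 fold change was 2.70 ± 0.48, with an adjusted p of 0.0103, and 2.90 with 0.00759 without CON_PLX_SAL 2. It was not called without CON_PLX_SAL 3 or 4 or without CON_CON_SAL 2 or 4. Aoah overlaps Gm25605 and the pseudogene Gm47727 on the same strand, whose reads the count could share.

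AI662270 (chromosome 11, 83223576 to 83226604, plus strand) is annotated as a processed transcript and overlaps the pseudogene Gm11427 on the same strand, so its reads are uncertain. It had 12.2, 6.89, 5.94 and 10.1 CPM in CON_PLX_SAL 1 to 4, against 1.56, 0.366, 3.15 and 1.11 CPM in CON_CON_SAL 1 to 4. The difference on the log2 scale was 2.48 ± 0.41, with an adjusted p of 0.00516, and 2.58 with 0.00759 without CON_PLX_SAL 2. The call was lost without CON_PLX_SAL 1. AI662270 and Aoah fell below the expression level set for naming genes and were chosen after their values were seen.

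Nbea (chromosome 3, 55625195 to 56183701, minus strand) encodes neurobeachin, a scaffold of vesicle trafficking best known at synapses. Its values were 62.7, 82.6, 97.0 and 71.5 CPM in CON_PLX_SAL 1 to 4, against 135.7, 149.5, 127.4 and 117.4 CPM in CON_CON_SAL 1 to 4. The highest CON_PLX_SAL value, in CON_PLX_SAL 3, was below the lowest CON_CON_SAL value, in CON_CON_SAL 4. The log2 fold change was -0.75 ± 0.11, with an adjusted p of 0.00516, and -0.78 with 0.0122 without CON_PLX_SAL 2. It was called whichever library was left out, with changes of -0.87 to -0.65. The gene spans 8 smaller annotated genes, among them Mab21l1, whose reads the count could share. The 14 neuron markers summed to 29.1 to 38.1 CPM in CON_PLX_SAL and 39.0 to 61.6 CPM in CON_CON_SAL on raw totals. On the TMM-scaled totals used for single genes the sums overlapped, at 29.2 to 38.6 CPM in CON_PLX_SAL and 38.2 to 63.0 CPM in CON_CON_SAL. Of these markers 10 were too low to test. None of the 4 tested was called, and 0 lay above 0, beside 49.3% of all genes tested. Their median log2 fold change was -0.68. The part of neuron markers in the Nbea result was not tested.

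Amotl1 (chromosome 9, 14541966 to 14645056, minus strand) encodes an angiomotin-like protein of cell junctions that binds the co-activator YAP. It had 19.5, 21.9, 23.5 and 14.7 CPM in CON_PLX_SAL 1 to 4, against 36.1, 41.4, 30.8 and 33.4 CPM in CON_CON_SAL 1 to 4. The groups did not overlap. This gave a log2 fold change of -0.81 ± 0.16, with an adjusted p of 0.0212. Without CON_PLX_SAL 2 it was -0.86 with 0.0548, and the call was also lost without CON_PLX_SAL 1 or 4 or without CON_CON_SAL 1, 2 or 4. Amotl1 overlaps Gm34263 on the other strand and 4930584E12Rik on its own, so shared reads cannot be assigned.

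**Figure D2:**
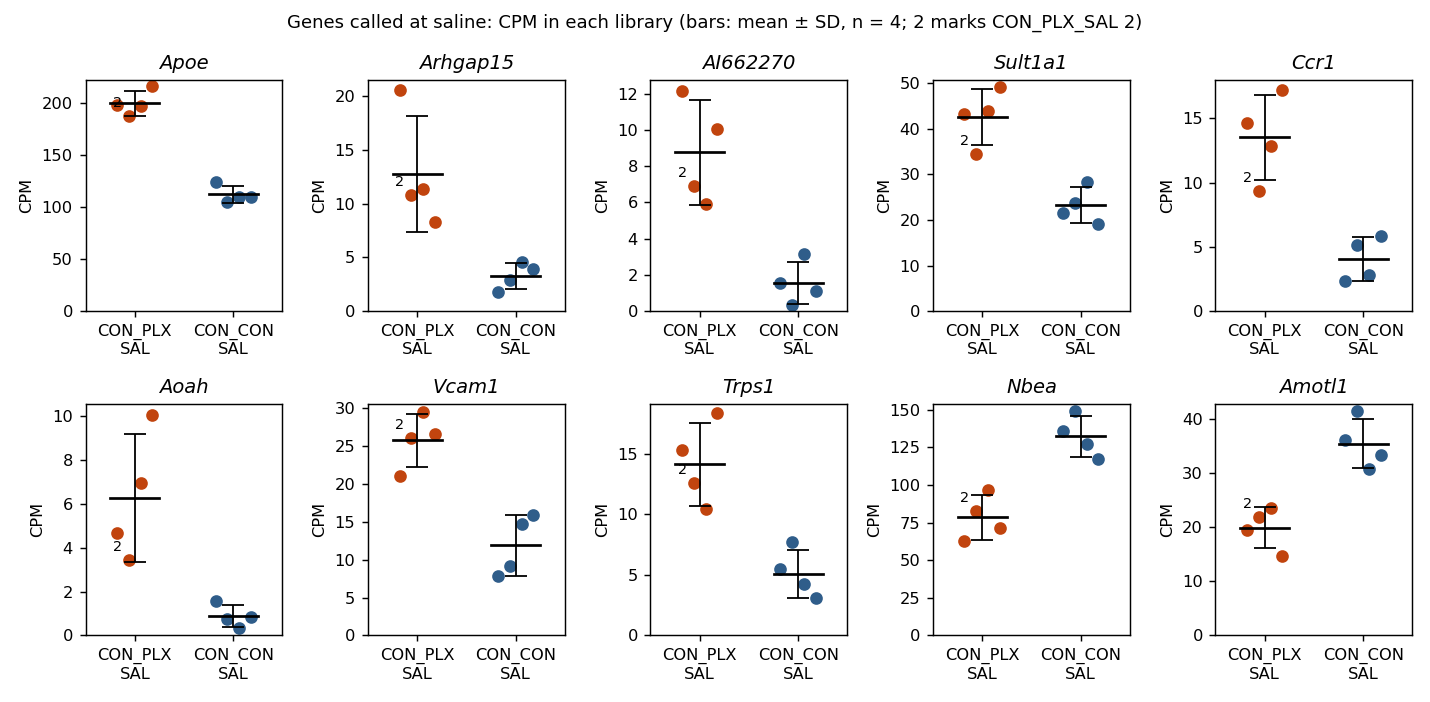
CPM of the 10 called genes in each library, with CON_PLX_SAL left and CON_CON_SAL right in each panel, black bars for mean ± SD (n = 4) and a 2 beside CON_PLX_SAL 2. The groups do not overlap in any panel, and the spread within CON_PLX_SAL is widest relative to its mean for Arhgap15 and Aoah.

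Just outside the threshold stood Mrc1 and Sall3. Mrc1, the mannose receptor and a marker of border-associated macrophages, had 90.3, 84.9, 61.4 and 71.5 CPM in CON_PLX_SAL 1 to 4, against 28.8, 31.5, 53.9 and 33.9 CPM in CON_CON_SAL 1 to 4. CON_CON_SAL 3 was the CON_CON_SAL library nearest to the CON_PLX_SAL values. Its log2 fold change was 1.07 ± 0.18, with an adjusted p of 0.0598, and 1.02 with 0.16 without CON_PLX_SAL 2; it was called by voom and by DESeq2. Sall3, a zinc finger factor of the family of the microglial factor Sall1, had 97.4, 151.3, 137.5 and 132.2 CPM in CON_PLX_SAL 1 to 4, against 222.4, 228.9, 172.2 and 194.5 CPM in CON_CON_SAL 1 to 4. Its log2 fold change was -0.66 ± 0.12, with an adjusted p of 0.0716, and it was called without CON_PLX_SAL 2 (-0.75, adjusted p 0.013). Resf1, a regulator of retroelement silencing, stood at 0.38 on the log2 scale (adjusted p 0.0658, edgeR).

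The receptor CSF1R, the target of several inhibitors with PLX code names, and its partners gave no call. Csf1r was among the most abundant transcripts, with 5273, 4846, 5006 and 4948 CPM in CON_PLX_SAL 1 to 4, against 5344, 4873, 4739 and 5431 CPM in CON_CON_SAL 1 to 4. The values interleave, and the log2 difference was -0.02 ± 0.06. Csf1, its ligand, had 8.62 to 20.3 CPM in CON_PLX_SAL and 15.9 to 30.0 CPM in CON_CON_SAL, a log2 difference of -0.43 ± 0.23. Il34, the other ligand, had counts in CON_CON_SAL 1 alone (0.259 CPM). Of 13 genes in the list of CSF1R, its ligands and signalling partners, 12 were tested and 0 were called; the signalling adaptor Tyrobp stood at 0.18 ± 0.12 and the phospholipase gene Plcg2 at 0.09 ± 0.08. The median log2 fold change of these 12 was -0.01, against -0.003 over all genes, and 0 of the 12 had an unadjusted p under 0.05 by edgeR or were called by DESeq2.

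Genes of resting microglia gave no call either. Of 18 homeostatic genes 0 were called, 11 lay above 0, and the median log2 fold change was 0.02. The list holds P2ry12, and the cells were sorted for P2RY12, CD11b and low CD45. Cells outside that gate were not collected, so these values describe only cells that kept the gate's markers. Tmem119, a microglial membrane protein, stood at 0.01 ± 0.08, the fractalkine receptor gene Cx3cr1 at -0.03 ± 0.06 and the sialic acid receptor gene Siglech at 0.02 ± 0.06. Upk1b, a tetraspan membrane protein, had the smallest p of the list (-0.28 ± 0.13, adjusted p 0.943 by edgeR) and was the 1 member with an unadjusted p under 0.05; 0 were called by DESeq2. Of 12 transcription factors of microglial identity 0 were called, and 1, Sall3, was lower without CON_PLX_SAL 2 and by DESeq2. Sall1, the factor that sets microglia apart from other macrophages, stood at -0.01 ± 0.07, the PU.1 gene Spi1 at 0.07 ± 0.12 and Irf8, a partner of PU.1, at -0.21 ± 0.11.

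In the list of genes raised in macrophages that engraft the brain, 2 of 8 tested were higher, Apoe and Ccr1, and 0 lower, with a median log2 fold change of 0.55, beside 0.0674% higher and 0.0169% lower over all genes tested. The other 6 were not called. This list was chosen with earlier results of these data known, so its share of calls is not independent of them. Cybb, the catalytic subunit of the phagocyte oxidase, had 9.74, 11.8, 10.1 and 6.82 CPM in CON_PLX_SAL 1 to 4, against 2.85, 6.59, 3.85 and 3.62 CPM in CON_CON_SAL 1 to 4, a log2 difference of 1.23 ± 0.30 (adjusted p 0.188, edgeR). Axl, a receptor for the uptake of dead cells, had 16.1 to 18.5 CPM in CON_PLX_SAL and 5.29 to 14.3 CPM in CON_CON_SAL, a log2 difference of 0.89 ± 0.24 with an adjusted p of 0.334. Lyz2, the macrophage lysozyme, stood at -0.13 ± 0.10. The 4 members too low to test include Ms4a7, at 0.664 to 1.44 CPM in CON_PLX_SAL and 0 to 1.95 CPM in CON_CON_SAL, and Clec12a, at 0 to 1.48 CPM in CON_PLX_SAL and 0 to 0.366 CPM in CON_CON_SAL.

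Markers of border-associated macrophages are given beside Apoe and Ccr1, because a sort can hold such cells. Of 9 markers 4 were tested, 5 were too low to test and 0 were called. All 4 lay above 0 with an unadjusted p under 0.05, and the median log2 fold change was 0.91. Over all genes tested 49.3% lay above 0 and 612 of 11864 had an unadjusted p under 0.05. DESeq2 called 1 of the 4, Mrc1. Beside Mrc1 these are the coagulation factor gene F13a1 (0.81 ± 0.35), the sialic acid receptor gene Siglec1 (1.01 ± 0.49) and the scavenger receptor gene Stab1 (0.18 ± 0.08). The 9 markers summed to 440 to 502 CPM in CON_PLX_SAL and 314 to 462 CPM in CON_CON_SAL, and most of each sum is Stab1. Cd163 had 1.44 to 6.89 CPM in CON_PLX_SAL and 0 to 2.80 CPM in CON_CON_SAL, and Lyve1 0.886 to 1.97 CPM in CON_PLX_SAL and 0 to 3.15 CPM in CON_CON_SAL. Their part in the Apoe, Ccr1 and Vcam1 results was not tested. The 8 monocyte markers summed to 11.68 to 26.0 CPM in CON_PLX_SAL and 7.61 to 11.66 CPM in CON_CON_SAL, highest in CON_PLX_SAL 2. These sums did not overlap, by a narrow margin, with or without that library. Of the 8 markers 1 could be tested, and it was not called. The part of monocyte transcripts in the Ccr1 result at saline was not tested. Ly6c2, the classical monocyte marker, had a count in CON_PLX_SAL 2 alone.

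**Figure D3:**
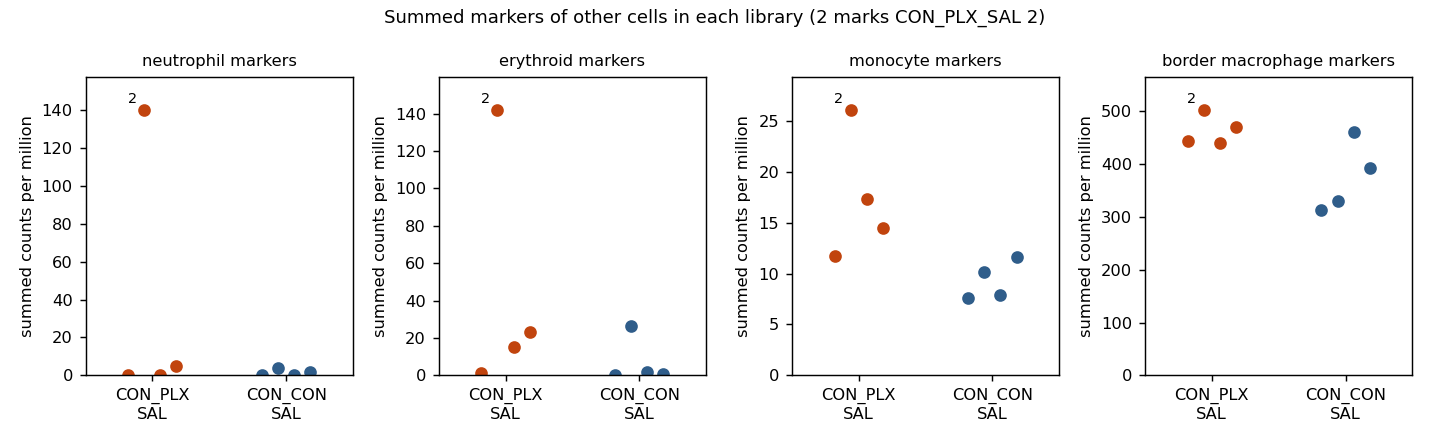
Summed CPM of neutrophil, erythroid, monocyte and border macrophage markers in each library, CON_PLX_SAL left and CON_CON_SAL right, with a 2 beside CON_PLX_SAL 2. That library holds 139.8 CPM of neutrophil and 141.7 CPM of erythroid markers, while the border macrophage sums of the groups overlap.

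Genes of the disease-associated state, in which microglia take up lipid and debris, were higher in 1 of 17 tested, Apoe, and lower in 0, with a median of 0.14, beside the same 0.0674% and 0.0169% over all genes tested. Apoe is also a member of the engrafted macrophage list. Igf1, a growth factor, had 4.65, 7.38, 5.44 and 6.46 CPM in CON_PLX_SAL 1 to 4, against 1.82, 2.56, 3.50 and 2.50 CPM in CON_CON_SAL 1 to 4, a log2 difference of 1.21 ± 0.36 (adjusted p 0.515, edgeR). In the list of complement and phagocytic receptor genes 0 of 19 tested were called, with 4 at an unadjusted p under 0.05, beside 612 of 11864 over all genes tested. C3, the central complement component, had 4.65, 9.84, 5.20 and 4.67 CPM in CON_PLX_SAL 1 to 4, against 2.85, 1.10, 1.75 and 1.39 CPM in CON_CON_SAL 1 to 4. Its log2 difference was 1.73 ± 0.41 with an adjusted p of 0.163, and 1.39 with 0.612 without CON_PLX_SAL 2, which held the highest value. The initiator subunit C1qa stood at -0.04 ± 0.08. Of 18 lysosomal genes 0 were called, and Cd68, a lysosomal membrane protein, stood at 0.21 ± 0.08.

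**Figure D4:**
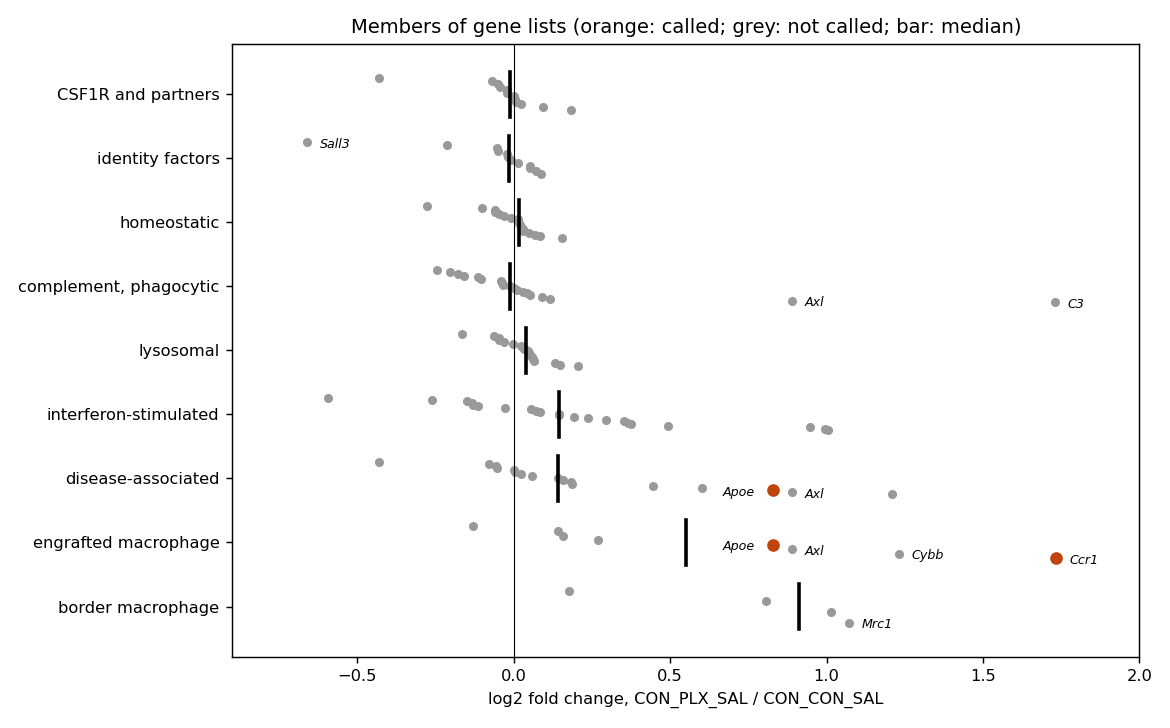
Log2 fold changes of CON_PLX_SAL over CON_CON_SAL for the tested members of 9 gene lists, with a black bar at each median, orange points for called genes and grey for the rest. Lists of CSF1R partners, identity factors and homeostatic genes centre between -0.01 and 0.02, the engrafted macrophage list at 0.55 and the border macrophage list at 0.91.

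Lists of inflammatory genes gave 0 calls by edgeR and 0 by DESeq2. Of 22 interferon-stimulated genes 15 lay above 0 and 4 had an unadjusted p under 0.05, with a median of 0.15. The shares over all genes tested were 49.3% above 0 and 612 of 11864 at an unadjusted p under 0.05. Oasl2, an antiviral gene, stood at 1.0 ± 0.30 (adjusted p 0.515, edgeR). Of 20 NF-kB targets 8 lay above 0, with a median of -0.07. Tnf had 47.2 to 80.4 CPM in CON_PLX_SAL and 45.5 to 107.7 CPM in CON_CON_SAL, and Il1b had 24.6 to 40.9 CPM in CON_PLX_SAL and 13.7 to 43.8 CPM in CON_CON_SAL. Tlr4, the receptor for LPS, stood at 0.15 ± 0.09. The 9 chemokines, 15 genes of MHC class I and antigen processing and 4 of MHC class II tested gave 0 calls as well, with medians of 0.16, -0.04 and -0.13.

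Metabolic and housekeeping lists were also without calls by either tool. Of 38 cytosolic ribosomal protein genes 7 lay above 0, with a median of -0.07. Of 16 glycolytic genes 1 lay above 0, with a median of -0.08, and the pyruvate kinase gene Pkm stood at -0.20 ± 0.10. The 16 genes of the unfolded protein response tested had 2 above 0 and a median of -0.08, and the 27 nuclear genes of oxidative phosphorylation a median of -0.01. For comparison, 49.3% of all genes tested lay above 0. Cholesterol genes (16 tested) had a median of 0.21, and the 8 glucocorticoid-responsive genes tested one of 0.25. Among the glucocorticoid-responsive genes Fkbp5, a co-chaperone of the glucocorticoid receptor, had 82.8, 47.7, 105.1 and 133.6 CPM in CON_PLX_SAL 1 to 4, against 27.0, 26.0, 77.7 and 56.2 CPM in CON_CON_SAL 1 to 4. These groups overlap, and the log2 difference was 0.98 ± 0.48 with an adjusted p of 0.943. Lists of TGF-beta signalling, LPS sensing, cell cycle, BCL2 family, immediate early, mitochondrially encoded, clock and ion channel genes had 0 calls and medians between -0.10 and 0.10. Markers of astrocytes, oligodendrocytes, vessels, lymphocytes and choroid plexus had 0 calls among the few that could be tested, with medians of 0.21, 0.04, 0.30, -0.11 and -0.16.

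Leaving out CON_PLX_SAL 2 gave 7 higher genes (0.0583% of 12003 tested) and 3 lower (0.025%), 0.0833% in all. Vcam1 and Amotl1 were no longer called, and Sall3 and Dlc1 became so. Dlc1, a GTPase-activating protein, had 6.86, 20.4, 14.8 and 15.4 CPM in CON_PLX_SAL 1 to 4, against 30.6, 28.6, 25.9 and 27.3 CPM in CON_CON_SAL 1 to 4. Its log2 fold change was -1.22 ± 0.22 with an adjusted p of 0.016 without CON_PLX_SAL 2, and -0.98 with 0.181 with it. The neutrophil genes were too low to test, and those that were highest in CON_PLX_SAL 2 were S100a9 (41.6 CPM), Ngp (32.2 CPM), S100a8 (21.2 CPM), Ltf (13.8 CPM) and Lcn2 (13.04 CPM). In the other CON_PLX_SAL libraries none of these was above 2.15 CPM. Of the 8 higher genes, 7 kept their call without that library and Vcam1 had 26.1 CPM in it, inside the range of its group.

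PLX was also compared with none in a pair of other settings of the series, each fitted on its own libraries, which are not among the 8. CPM values of these libraries were scaled over 37 libraries and are not on the scale used above. After prenatal MIA at saline (3 MIA_PLX_SAL and 4 MIA_CON_SAL libraries) 2 genes were called higher (0.0175% of 11408), Ccr1 and the ribosomal gene Rpl13, and 0 lower. After prenatal CON with LPS (6 CON_PLX_LPS and 4 CON_CON_LPS libraries) 0 of 11775 were called by edgeR, with 461 at an unadjusted p under 0.05. Of the 10 genes called here, 8 could be tested after MIA, where 7 had the same direction, 6 had an unadjusted p under 0.05 and 1 was called. Over all genes, 5763 of the 11294 tested in both comparisons (51%) had the same direction, and 745 of the 11408 tested after MIA (6.53%) had an unadjusted p under 0.05. After LPS all 10 were tested and had the same direction, 5 had an unadjusted p under 0.05 and 0 were called. Over all genes, 5541 of the 11099 tested in both comparisons (49.9%) had the same direction, and 3.92% of the 11775 tested after LPS had an unadjusted p under 0.05.

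Ccr1 was called higher with PLX in both saline settings. After MIA it had 18.2, 11.1 and 12.8 CPM in MIA_PLX_SAL, against 3.37, 5.27, 2.26 and 5.41 CPM in MIA_CON_SAL, a log2 fold change of 1.81 ± 0.32 (adjusted p 0.047, edgeR). After LPS it had 11.9, 27.0, 47.8, 12.4, 56.2 and 15.8 CPM in CON_PLX_LPS, against 1.07, 4.69, 5.37 and 8.57 CPM in CON_CON_LPS. These groups did not overlap, and the log2 difference of 2.54 ± 0.59 was not called. The 8 monocyte markers summed to 54.5 to 573 CPM in CON_PLX_LPS and 27.9 to 131 CPM in CON_CON_LPS, on raw totals. CON_PLX_LPS 3 and 5, the highest for Ccr1, were also the highest for this sum. The part of monocyte transcripts in the Ccr1 difference after LPS was not tested. Apoe had 290, 215 and 164 CPM in MIA_PLX_SAL, against 169, 114, 93.0 and 104 CPM in MIA_CON_SAL. There the highest MIA_CON_SAL value exceeded the lowest MIA_PLX_SAL value, and the log2 difference was 0.89 ± 0.29. After LPS the Apoe difference was 1.0 ± 0.40. Nbea had log2 differences of -0.45 ± 0.14 after MIA and -0.87 ± 0.18 after LPS, where CON_PLX_LPS libraries held 28.3 to 43.3 CPM and CON_CON_LPS libraries 59.3 to 72.8 CPM. Trps1 had 1.52 ± 0.44 after MIA and 0.94 ± 0.33 after LPS, and Arhgap15 2.23 ± 0.46 and 1.16 ± 0.78, none of them called. Mrc1, not called in any of the 3 settings, had 0.46 ± 0.16 after MIA and 1.30 ± 0.75 after LPS, and Sall3 had -0.28 ± 0.19 and -0.56 ± 0.30.

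Sult1a1 did not follow that pattern after MIA. It had 26.9, 31.8 and 24.1 CPM in MIA_PLX_SAL, against 30.8, 35.1, 30.0 and 31.5 CPM in MIA_CON_SAL, a log2 difference of -0.21 ± 0.16. Its PLX difference in CON minus that in MIA was 1.09 ± 0.67 in the fit of 37 libraries (unadjusted p 0.114) and 1.09 ± 0.22 in a fit of the 4 saline groups (unadjusted p 2.06e-05, adjusted p 0.252). For Amotl1 the difference after MIA was -0.05 ± 0.17, and the same contrast was -0.78 ± 0.40 in the fit of 37 libraries. In the fit of the 4 saline groups it was -0.77 ± 0.23 (unadjusted p 0.00198, adjusted p 0.813, edgeR). Over all 13417 genes 0 passed for this contrast (118 at an unadjusted p under 0.05, 0 by DESeq2) and 0 for the contrast of saline with LPS (354 at an unadjusted p under 0.05, 0 by DESeq2). Fits of only the 4 groups of each contrast gave 652 and 408 at an unadjusted p under 0.05 (edgeR), with 0 called. The common dispersion of the 37-library fit was 0.0972, against 0.0152 in the 8 libraries. A gene called at saline in CON and not in another setting is therefore not shown to differ between them.

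**Figure D5:**
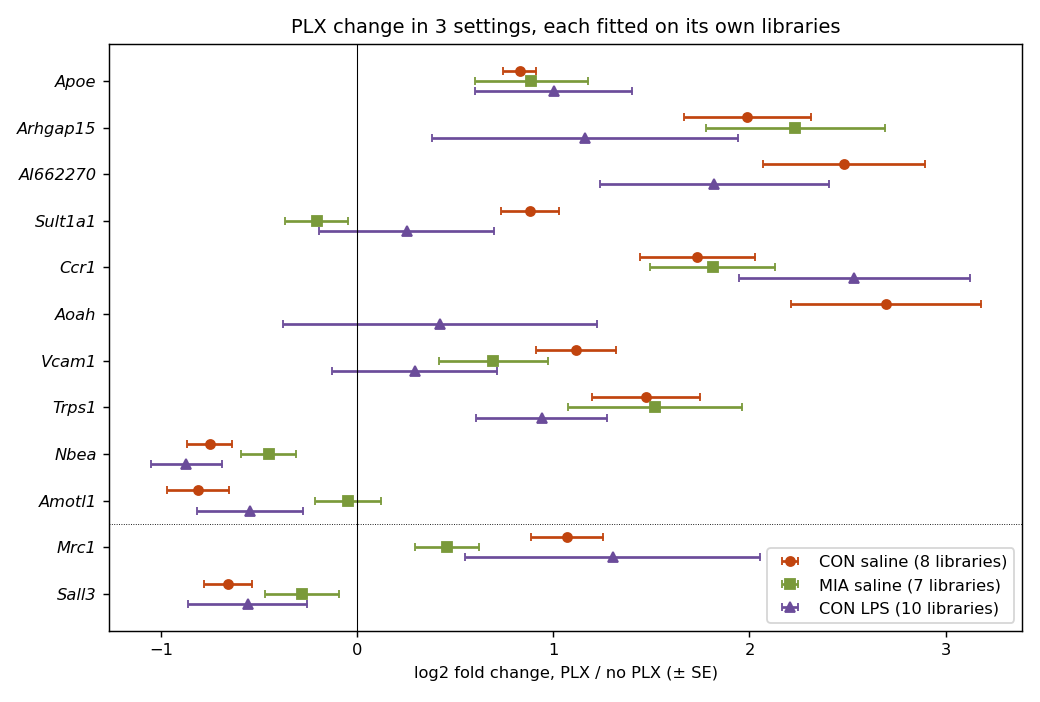
Log2 fold change of PLX over no PLX (± SE) for the 10 called genes and, under the dotted line, Mrc1 and Sall3, after prenatal CON at saline, prenatal MIA at saline and prenatal CON with LPS. Ccr1 lies at 1.73, 1.81 and 2.54, while Sult1a1 lies at 0.88 at saline after prenatal CON and at -0.21 after prenatal MIA; AI662270 and Aoah were too low to test after MIA.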

How the data were processed

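RNA was sequenced from sorted striatal microglia after linear amplification without strand information or depletion of ribosomal RNA, per the labels' protocols. The authors deposited 1 table of estimated counts for 55487 gene identifiers in 39 libraries, of whose nonzero values 14.71% are fractional. Per the submitters' processing notes, STAR, RSEM and DESeq2 were used, with neither version nor role stated. Which genome build they used is not given in the sources used here. Coordinates are those of GENCODE M21 (GRCm38) for the matched identifiers, of which 54349 matched with their version and 55141 in all. The share of counts on genes with no symbol was 0.0132%.

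Values were rounded to whole numbers. Genes were kept by filterByExpr (minimum count 10, minimum total 15), and the 8 libraries were fitted alone by the quasi-likelihood method of edgeR 4.0.16 in R 4.3.3, with TMM normalization and robust estimation. Tests are two-sided, a gene is called at a Benjamini-Hochberg adjusted p under 0.05 with no fold limit, and the standard error is the log2 fold change over the square root of the F statistic. CPM of single genes use TMM-scaled totals, and sums of markers use raw totals. Total counts, the share of mitochondrial ribosomal RNA and the neutrophil sum were compared by exact permutation of the 70 relabelings.

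The text names 19 fixed genes, the 12 higher and 12 lower genes of smallest p with an average log2 CPM of at least 3 (6 each way without CON_PLX_SAL 2), the called members of 36 gene lists up to 6 or else the member of smallest p, and 5 genes for each interaction; predicted genes were skipped, and not all genes so named are described; the values of 1 of them are not reported here. Further members were chosen after their values were seen. The members and lists were chosen with earlier results of these data known. Alternatives were RLE size factors, DESeq2 1.42.0, limma 3.58.1 voom with quality weights, no filter, each library left out, the replicate number as a block, fits of 15 saline or 37 libraries, and removal of mitochondrial and ribosomal RNA genes. Replicate pairs differed beyond counting error, with chi-square per degree of freedom of 2.42 to 7.61. On simulated counts of 11651 genes made for this comparison, 58.2% of 67 genes changed 1.5-fold, 89.6% of 67 changed 2-fold and 97% of 66 changed 4-fold were recovered, with 9 false calls. The changed genes were drawn from those with an average log2 CPM of at least 3, so lower genes such as Aoah and AI662270 are not covered. Many more genes were changed there than were called in the data, which eases the adjusted threshold. Recovery in the data may therefore be lower.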

Additional observations from a re-analysis of the deposited data

Results flagged for a closer look

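Libraries far from the other 3 of their group were looked for in 188 groups of 4 values (Dixon's criterion, 0.829), and 20 were found. For independent, normally spread values chance flags about 1 in 20, but that rate does not hold here. Any count is flagged where the other 3 libraries are at 0, as for Il34, S100a8, S100a9, Hbb-bt and Rmrp in CON_CON_SAL. Genes and the marker sums that hold them are also flagged together. CON_PLX_SAL 2 was the highest of its group for S100a8 (21.2 CPM), S100a9 (41.6 CPM), Hbb-bt (33.2 CPM) and C3 (9.84 CPM), for the sum of neutrophil markers (139.8 CPM) and for the sum of erythroid markers (141.7 CPM). CON_CON_SAL 2 was the highest of its group for S100a8 (0.366 CPM), S100a9 (0.733 CPM), Hbb-bt (4.40 CPM) and the erythroid sum (26.5 CPM), and the lowest for the tRNA-splicing gene Tsen34 (12.1 CPM). Hbb-bt has a near-identical copy, so its counts are uncertain.

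CON_PLX_SAL 1 was the highest of its group for Cd68 (403 CPM) and the lowest for Gadd45g (16.6 CPM). CON_PLX_SAL 3 was the highest for Tmem41b (26.0 CPM), and CON_PLX_SAL 4 for Cd79b (11.1 CPM) and Tsen34 (14.4 CPM). CON_CON_SAL 1 was the highest for Ddit3 (37.9 CPM) and for Il34 (0.259 CPM). CON_CON_SAL 3 was the lowest for Skil (735 CPM) and the highest for Rmrp (3.85 CPM).

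Cox15 and Rn7sk were higher with PLX at saline in every library after prenatal CON and lower in every library after prenatal MIA. Both are among the 5 genes of smallest p named for the contrast of these settings, so opposite directions were favoured by that choice. How many of all genes tested show this pattern was not counted. The PLX difference in CON minus that in MIA was 0.79 ± 0.22 for Cox15 and 2.87 ± 0.86 for Rn7sk (log2, SE, fit of 37 libraries), with adjusted p of 1.0 for both by edgeR.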

How the results depend on the processing

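All 10 called genes kept their direction in all 17 alternatives, and none was called in all 17. No named gene reversed. Of the 67 named genes not called, 14 were called in some alternative. Against 8 higher and 2 lower genes, voom called 4 and 2 (3 of them among the 10, Apoe, Sult1a1 and Nbea), DESeq2 11 and 3, and no filter on low counts 26 and 20. The fit of 15 saline libraries gave 5 and 2, and that of 37 libraries 0 and 0, with 124 genes at an unadjusted p under 0.05. The cause was not tested. RLE size factors and removal of mitochondrial and ribosomal RNA genes gave 8 and 2. Leaving out each library gave 3 to 23 higher and 1 to 11 lower; the low ends came without CON_PLX_SAL 4 and without CON_CON_SAL 1 or 2, the high ends without CON_CON_SAL 3 (23 and 11, Mrc1 and Sall3 among them).

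Replicate numbers did not pair the libraries (correlation of deviations -0.03, 0.05, -0.10 and 0.02 for numbers 1 to 4). With the replicate block 11 genes were higher and 3 lower, and with the block and without CON_PLX_SAL 2 there were 2 and 0, against 7 and 3 without the block. Both interactions stayed at 0 calls in every alternative run. Depth limits the low genes, since Aoah and AI662270 rest on as few as 1 count in a library.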
